A study of Homo sapiens with 6 samples.

Results

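The complement system was followed here through 9 genes that epithelial cells can express: the components C3, CFB, C1R and C1S, the soluble regulators CFI and SERPING1, and the membrane regulators CD46, CD55 and CD59. They were chosen by symbol, and 8 of the 9 have a row among the 19469 genes of the count table. The level of CFB was not analysed here. The cells were L3.6pl, an established human pancreatic cancer line that the sample labels write as L6.6pl and assign both to ductal adenocarcinoma and to adenosquamous carcinoma of the pancreas. They received no treatment and were sorted by FACS on surface L1CAM, a cell adhesion molecule, into L1CAM_POSITIVE cells (L1high, 3 libraries) and L1CAM_NEGATIVE cells (L1low, 3 libraries). Every library thus came from the same line in the same medium, and the groups differed by the sort gate alone as far as the labels say.

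The libraries held between 16334610 and 21064685 counted reads. L1CAM itself ran from 69.8 to 89.5 CPM (read counts scaled to library size, with TMM factors over the 6 libraries) in L1high cells and from 17.7 to 23.7 CPM in L1low cells. The comparison that the study made leaves out L1high replicate 3 and gives no reason, so each test was run over the other 5 libraries and again over all 6. Log2 fold changes are positive where L1low cells had the higher level. A gene was called where the quasi-likelihood test of edgeR gave a p under 0.05 after Benjamini-Hochberg adjustment over the whole table. Nothing in the labels says that the replicates were separate cultures, so the p-values measure the spread between these samples. All 6 epithelial markers examined (EPCAM, KRT7, KRT8, KRT18, KRT19 and CDH1) were measured. Their summed level was 4232 to 4785 CPM in L1high and 4780 to 5130 CPM in L1low libraries. Over the 5 libraries KRT19 was called higher (log2 fold change 0.69) and EPCAM lower (-0.37) in L1low cells, and the other 4 were not called.

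Complement is a cascade of plasma proteases and surface-binding proteins that tags cells for removal or lyses them. In the classical pathway, C1q bound to a target activates the protease C1r, which cleaves C1s, and C1s goes on to cleave C4 and C2. All pathways meet at C3, whose fragment C3b binds covalently to nearby surfaces, and end in a pore of C5b to C9, the membrane attack complex. Host cells hold the cascade back with CD55, which takes C3 convertases apart, CD46, a cofactor for the cleavage of C3b by factor I, and CD59, which blocks assembly of the pore. Liver cells make most plasma complement, but epithelial and tumor cells also express several components, and tumor cells commonly carry the membrane regulators.

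Of the 8 complement genes with values, 5 were called over the 5 libraries, against 7.57% of all genes tested. The proteases C1R and C1S rose in L1low cells (2 of 8, where 4.41% of all genes rose), and C3, CD55 and CD59 fell (3 of 8, where 3.15% fell). The same genes were called in the same directions over all 6 libraries, where 7.95% of genes were called, 4.58% as higher and 3.37% as lower. CFI, SERPING1 and CD46 were not called in either fit. The groups did not overlap in 6 of the 8 genes, which held for 28.8% of all genes. The median log2 fold change of the 8 genes was 0.04 and that of all genes 0.0016. In bulk RNA, fewer cells that express a gene and less of its RNA per cell cannot be told apart.

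**Figure D1:**
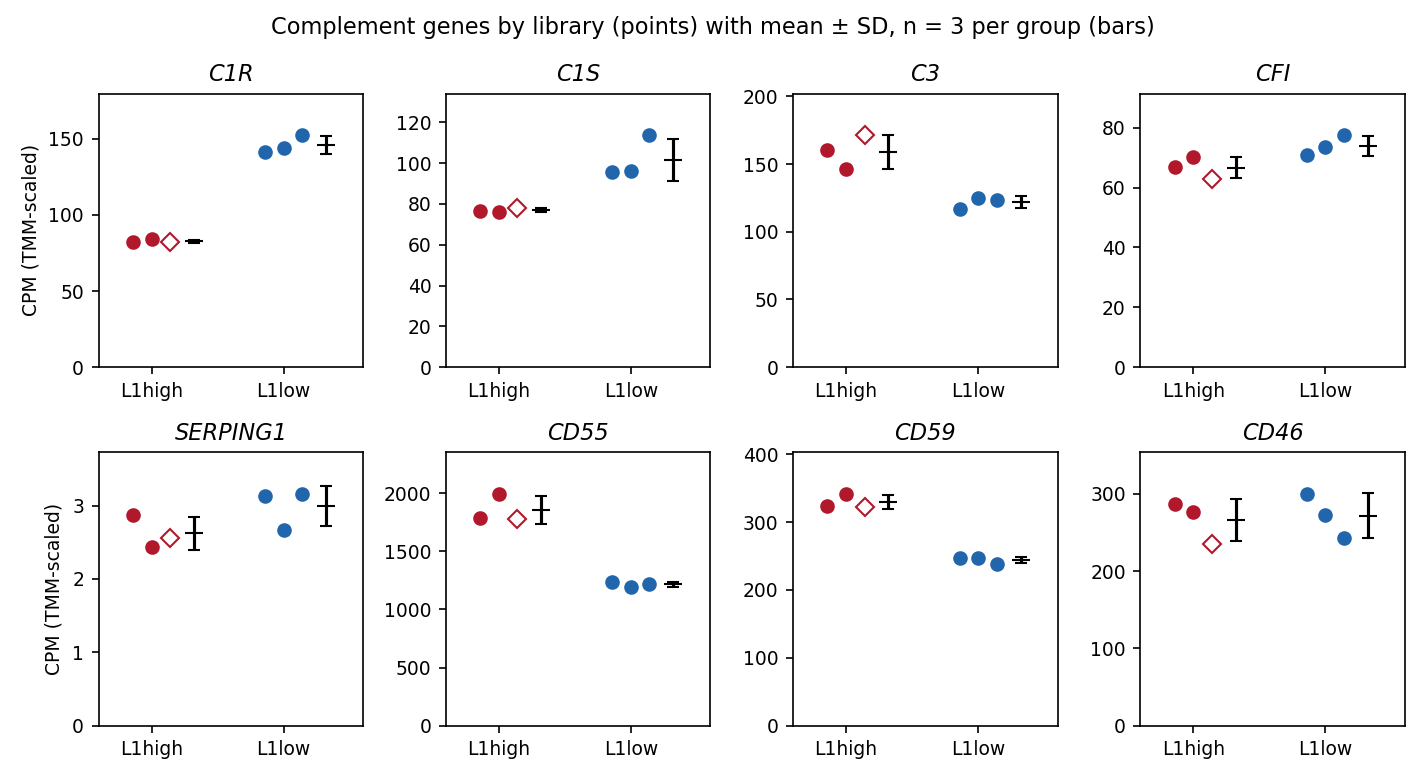
TMM-scaled CPM (y axes, from 0) of the 8 complement genes in each L1high (red) and L1low (blue) library, with the open diamond for L1high replicate 3 and black bars for the mean ± SD over 3 libraries. C1R and C1S sit higher and C3, CD55 and CD59 lower in every L1low library, while SERPING1 and CD46 overlap between the groups.

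C1R encodes the protease C1r, which starts the classical pathway once C1q has bound. Its level was 82.5, 83.8 and 81.9 CPM in L1high replicates 1, 2 and 3 and 141, 144 and 152 CPM in L1low replicates 1, 2 and 3. The L1high libraries lay within 1.02-fold of each other, and the lowest L1low library stood 57.4 CPM above the highest of them. The mean rose from 82.7 ± 1.0003 to 146 ± 5.78 CPM (SD, n = 3 each). This was a log2 fold change of 0.82 (standard error 0.08, 95% confidence interval 0.65 to 0.99, adjusted p = 3.7e-05 in the edgeR test) over the 5 libraries, a rise of 1.76-fold. All 6 libraries gave 0.82 as well (adjusted p = 1.62e-05). By p, C1R ranked 42 among the genes that were higher in L1low cells.

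C1S encodes the protease that C1r activates. It stood at 76.8, 76.0 and 78.0 CPM in the L1high libraries and at 95.4, 96.0 and 114 CPM in the L1low libraries. L1low replicate 3 was the highest library, and the groups stood 17.4 CPM apart. Its log2 fold change was 0.42 (standard error 0.09, 95% confidence interval 0.22 to 0.62, adjusted p = 0.0158 in the edgeR test) over the 5 libraries. With all 6 it was 0.40 (adjusted p = 0.0103). Its call depended on single libraries, with an adjusted p of 0.0808 without L1high replicate 1, of 0.161 without L1high replicate 2, of 0.0568 without L1low replicate 2 and of 0.0625 over all 6 libraries without L1high replicate 1, at log2 fold changes between 0.40 and 0.46.

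C1R and C1S are neighbors on chromosome 12 of GRCh38, C1S on the plus strand from 6988259 to 7071032 and C1R on the minus strand from 7080214 to 7092540, with 9181 bases between them. The stretch from C1S to the end of C1RL holds 5 genes of the table. C1RL, which encodes a protease related to C1r and overlaps C1R on the same strand by 672 exonic bases, also rose. It went from 82.1 ± 4.82 to 115 ± 0.948 CPM (SD, n = 3 each), a log2 fold change of 0.45 (adjusted p = 0.00354 in the edgeR test). Without L1high replicate 2 its adjusted p was 0.0684, at a log2 fold change of 0.40. The other two genes of the stretch were not called. These were LPCAT3, which overlaps C1S on the opposite strand (log2 fold change 0.17), and the antisense gene C1RL-AS1 (0.19). The libraries were stranded, but the strand setting of the counting is not given in the sources used here, so reads of overlapping genes may not be fully separated.

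Ratios of gene pairs within a library are given as descriptions, with no test, since the pairs were chosen after the values were seen. Per kilobase of exon, C1R stood at 1.54, 1.58 and 1.4997 times the level of C1S in the L1high libraries and at 2.11, 2.14 and 1.91 times in the L1low libraries. Both groups stayed apart in this ratio, which went from 1.54 ± 0.0381 to 2.06 ± 0.124 (SD, n = 3 each).

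RefSeq promoters (GRCh38.p14) were matched for 6 of the 9 genes. The 250 bases before each start were searched on both strands for the NF-kB motif, the GAS motif TTCNNNGAA of STAT factors, the ISRE motif of interferon response, the AP-1 motif TGANTCA, the CRE core TGACG, the GC box GGGCGG and the TATA box TATAAA. In that order these letters occur in 9.95%, 6.56%, 3.02%, 6.59%, 21.2%, 42.5% and 10.8% of 34943 promoters. The part of the C1R promoter that lies upstream of the annotated gene is shown because C1R changed most by log2 fold change. It covers chr12:7092541-7092695 on the minus strand and holds none of the 7 motifs, so it has no capitals. A CRE core lies at -19 to -15 of the same start, inside the annotated gene, and a GAS motif at -86 to -78 of another RefSeq start of C1R. CFB, of which no promoter sequence is shown, holds an ISRE motif at -140 to -131, an NF-kB motif at -112 to -103, a GAS motif at -92 to -84 and a TATA box at -30 to -25.
C1R: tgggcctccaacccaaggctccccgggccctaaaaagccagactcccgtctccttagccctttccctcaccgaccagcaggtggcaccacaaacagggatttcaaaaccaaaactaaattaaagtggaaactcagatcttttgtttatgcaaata

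**Figure D2:**
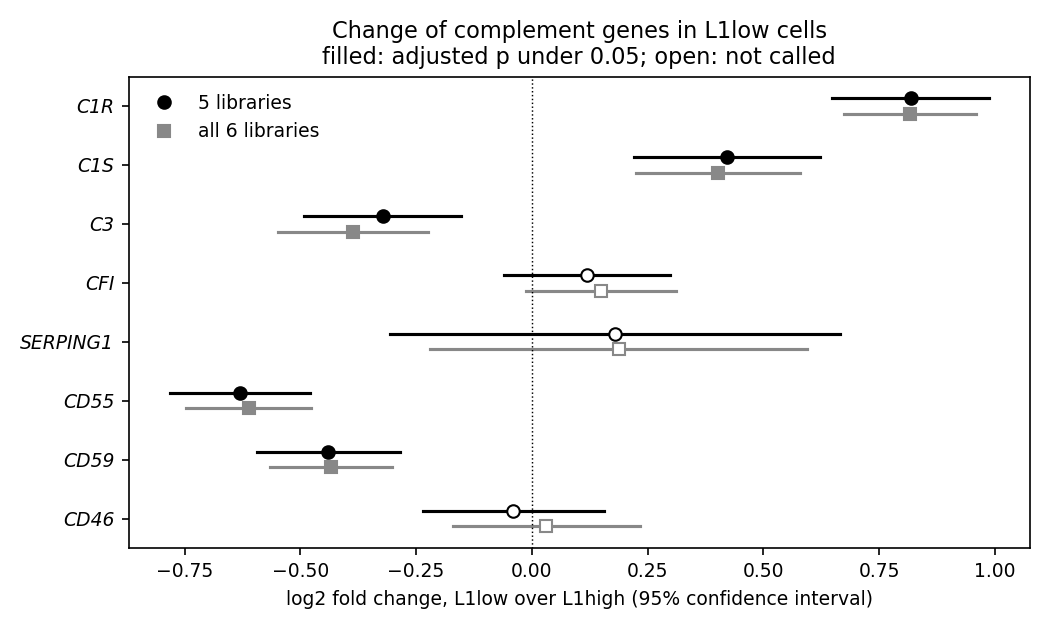
Log2 fold change of each complement gene in L1low over L1high cells (x axis) with its 95% confidence interval, over the 5 libraries (black circles) and all 6 (gray squares). Filled symbols are genes with an adjusted p under 0.05; C1R and C1S lie right of 0, C3, CD55 and CD59 left of it, and the intervals of CFI, SERPING1 and CD46 cross it.

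C3 encodes the central component of the cascade, on the minus strand of chromosome 19 from 6677704 to 6730562. Its level was 160.1, 146 and 171 CPM in L1high replicates 1, 2 and 3 and 117, 125 and 124 CPM in the L1low libraries. The L1high libraries spread by 1.17-fold, and the lowest of them stood 21.2 CPM above the highest L1low library. C3 fell from 159 ± 12.6 to 122 ± 4.47 CPM (SD, n = 3 each). This gave a log2 fold change of -0.32 (standard error 0.08, 95% confidence interval -0.49 to -0.15, adjusted p = 0.0259 in the edgeR test) over the 5 libraries. With all 6 it was -0.39 (adjusted p = 0.00813). Leaving out L1high replicate 1, L1high replicate 2, L1low replicate 1 or L1low replicate 2 from the 5 libraries gave an adjusted p of 0.142, 0.0732, 0.0579 and 0.114, and leaving out L1high replicate 1 from all 6 gave 0.0526. Over these fits the log2 fold change stayed between -0.39 and -0.26.

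C3 fell and C1R rose, so their ratio fell by construction. In the L1high libraries the level of C3 per kilobase of exon was 0.973, 0.874 and 1.05 times that of C1R. In the L1low libraries it was 0.414, 0.436 and 0.407 times. The groups did not overlap, with a mean of 0.965 ± 0.0874 against 0.419 ± 0.0149 (SD, n = 3 each).

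CFI encodes factor I, the plasma protease that degrades C3b and C4b when a cofactor holds them. It stood at 66.8, 70.1 and 63.0 CPM in the L1high libraries and at 70.8, 73.5 and 77.5 CPM in the L1low libraries. The groups only just failed to overlap, by 0.732 CPM. CFI was not called, at a log2 fold change of 0.12 (95% confidence interval -0.06 to 0.30, adjusted p = 0.414 in the edgeR test) and of 0.15 with all 6 libraries. CFI shares 1562 exonic bases with the read-through gene ENSG00000285330 on the same strand, which was not called either (0.09). With the reads of both genes summed, the adjusted p of CFI was 0.458 at a log2 fold change of 0.10. How reads in shared exons were counted is not given, so the sum may hold some reads more than once.

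SERPING1 encodes C1 inhibitor, the serpin that inactivates C1r and C1s. Its counts were 61, 50 and 42 in the L1high libraries and 57, 48 and 56 in the L1low libraries, or 2.62 ± 0.228 and 2.99 ± 0.275 CPM (SD, n = 3 each). The libraries of both groups overlapped. SERPING1 had a log2 fold change of 0.18 with a 95% confidence interval from -0.31 to 0.66 (adjusted p = 0.678 in the edgeR test), so a change of the size seen in C1S was not detectable at this depth. SERPING1 was the lowest of the 8 genes per length, at 0.363 CPM per kilobase in L1high cells, while its target protease C1R stood at 14.3.

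Of the membrane regulators, CD55 fell most. It encodes decay-accelerating factor, a GPI-anchored protein, and lies on the plus strand of chromosome 1 from 207321519 to 207386804. It stood at 1789.7, 1994 and 1781 CPM in L1high replicates 1, 2 and 3 and at 1234, 1195 and 1215 CPM in the L1low libraries. L1high replicate 2 was the highest, the L1low libraries lay within 1.03-fold of each other, and 547 CPM separated the groups. The mean fell from 1855 ± 121 to 1215 ± 19.1 CPM (SD, n = 3 each). The log2 fold change was -0.63 (standard error 0.07, 95% confidence interval -0.78 to -0.48, adjusted p = 1.31e-04 in the edgeR test), 1.55-fold lower in L1low cells, and -0.61 (adjusted p = 9.7e-05) over all 6 libraries. By p, CD55 ranked 36 among the genes that were lower in L1low cells.

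CD59 encodes protectin, also GPI-anchored, and lies on the minus strand of chromosome 11 from 33703010 to 33736479. Its level was 323, 342 and 323 CPM in the L1high libraries and 246, 247 and 238 CPM in the L1low libraries. Every L1low library stood at least 76.3 CPM below every L1high library. The mean fell from 329 ± 10.7 to 244 ± 4.72 CPM (SD, n = 3 each). The log2 fold change was -0.44 (standard error 0.07, 95% confidence interval -0.59 to -0.29, adjusted p = 0.0023 in the edgeR test), 1.36-fold lower, and -0.43 (adjusted p = 0.00101) over all 6 libraries. The read-through gene ENSG00000284969, which shares 629 exonic bases with CD59 on the same strand, fell alongside it (-0.54, adjusted p = 0.00118). With the reads of both summed, CD59 had a log2 fold change of -0.47, though this sum may also hold some reads more than once. FBXO3, the next gene on that strand, had a log2 fold change of -0.0048 (adjusted p = 0.985).

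CD46 encodes membrane cofactor protein, a transmembrane cofactor of factor I. Its libraries stood at 286, 276 and 236 CPM in L1high cells and at 300.1, 273 and 243 CPM in L1low cells, so that the groups overlapped over most of their range. Between the groups it had a log2 fold change of -0.04 (95% confidence interval -0.235 to 0.16, adjusted p = 0.834 in the edgeR test) over the 5 libraries and 0.03 (95% confidence interval -0.17 to 0.23) over all 6. Its sign therefore changed with the libraries used. CD46 and CD55 lie on the same strand of chromosome 1 with 365232 bases between them, and CR2, the receptor for C3d, lies in that gap. CR2 stood at 3.97 ± 0.128 CPM in L1high and 2.94 ± 0.161 CPM in L1low cells (SD, n = 3 each) and was not among the called genes (adjusted p = 0.220 in the edgeR test, log2 fold change -0.43).

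Ratios to CD46 within a library do not depend on the scaling between libraries. Per kilobase of exon, CD55 stood at 9.45, 10.9 and 11.4 times CD46 in L1high replicates 1, 2 and 3 and at 6.21, 6.62 and 7.57 times in the L1low libraries. CD59 stood at 1.66, 1.82 and 2.01 times CD46 in the L1high libraries and at 1.21, 1.33 and 1.44 times in the L1low libraries. Neither ratio overlapped between the groups. The ratio of CD55 to CD59 moved less, from 5.79 ± 0.186 to 5.13 ± 0.130 (SD, n = 3 each). The counts of the 3 regulators summed to between 2339 and 2612 CPM in L1high libraries and between 1696 and 1780 CPM in L1low libraries, with CD55 making up 75.7% and 70.2% of the sum on average.

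**Figure D3:**
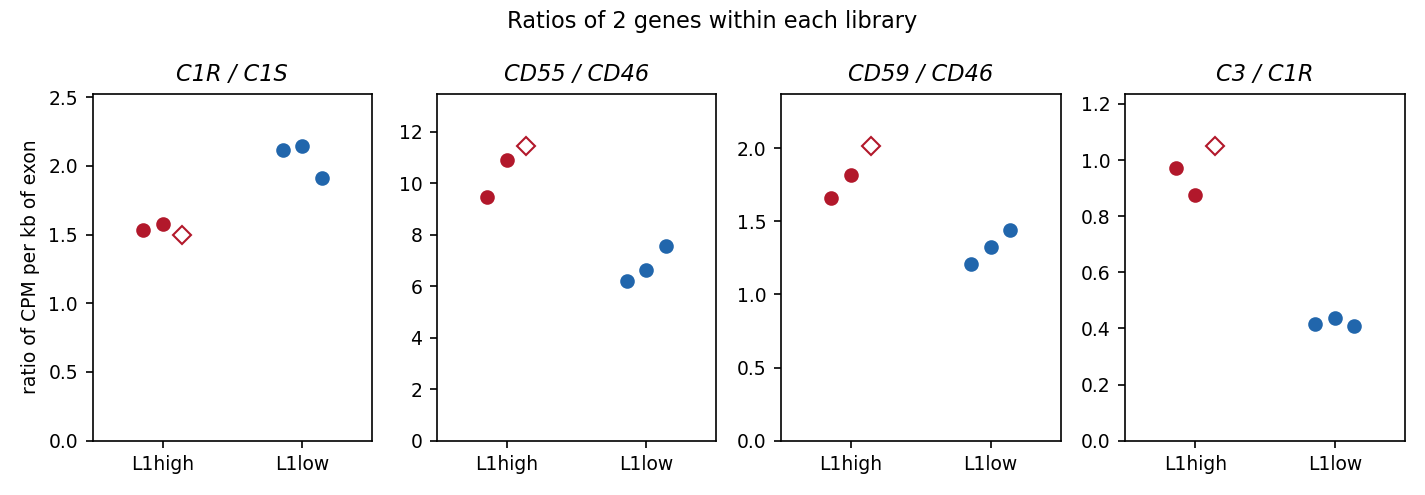
Ratio of the levels per kilobase of exon of 4 gene pairs (y axes, from 0) within each L1high (red) and L1low (blue) library, with the open diamond for L1high replicate 3. The C1R to C1S ratio is higher in all 3 L1low libraries, and the ratios of CD55 to CD46, CD59 to CD46 and C3 to C1R are lower.

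The promoters of the membrane regulators are shown because CD55 and CD59 fell and CD46 was not called, with motifs in capitals. The CD59 sequence is chr11:33736480-33736729 on the minus strand and ends at the first annotated start. Its GAS motif, whose pattern matches on both strands, spans positions -128 to -120 from that start. The CD46 sequence is chr1:207751788-207752036 on the plus strand and holds a CRE core at -214 to -210 and GC boxes, read on the minus strand, at -48 to -43 and -19 to -14. For CD55, whose RefSeq start lies inside the annotated gene, only the 25 bases around each of its CRE cores are shown, chr1:207321521-207321545 and chr1:207321598-207321622 on the plus strand, with the cores at -147 to -143 and -70 to -66. CD55 also holds a GC box, read on the minus strand, at -46 to -41. Other RefSeq starts of CD59 have GC boxes and AP-1 motifs in their windows. A CRE core was thus found in CD55, which fell, in CD46, which was not called, and in C1R, which rose, and a match of letters does not show that a factor binds there.
CD59: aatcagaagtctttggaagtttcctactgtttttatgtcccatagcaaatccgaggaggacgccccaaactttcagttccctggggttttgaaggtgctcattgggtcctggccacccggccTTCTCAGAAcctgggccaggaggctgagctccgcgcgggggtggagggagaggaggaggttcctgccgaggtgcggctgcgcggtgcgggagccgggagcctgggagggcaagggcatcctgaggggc
CD46: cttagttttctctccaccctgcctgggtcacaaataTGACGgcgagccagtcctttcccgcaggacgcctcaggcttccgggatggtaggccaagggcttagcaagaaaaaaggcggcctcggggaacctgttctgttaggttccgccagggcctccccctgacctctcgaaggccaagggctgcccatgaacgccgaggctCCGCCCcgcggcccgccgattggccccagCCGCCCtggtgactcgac
CD55, distal core: ccggggcgtaTGACGccggagccct
CD55, proximal core: ccacccttggTGACGcagagcccca

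Compared per length, the 8 genes spanned a wide range of levels. In L1high cells CD55 led at 181 ± 11.8 CPM per kilobase of exon (SD, n = 3), followed by CD59 at 31.2 ± 1.01, CD46 at 17.2 ± 1.73, C1R at 14.3 ± 0.172, C3 at 13.8 ± 1.08, CFI at 12.5 ± 0.665, C1S at 9.28 ± 0.121 and SERPING1. CD55 ranked 439 among all genes on this scale, averaged over the 6 libraries. C1R and C3 differed by less than the SD of C3, and C3 and CFI by less than the sum of their SDs. In L1low cells C1R, at 25.1 ± 0.996, stood above CD59 at 23.1 ± 0.447 and CD46 at 17.5 ± 1.86, while C3, at 10.5 ± 0.386, stood below CFI at 13.9 ± 0.633 and C1S at 12.3 ± 1.25. The lengths are those of all annotated exons of a gene, so a gene whose longer transcripts are not used is placed too low.

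The rest of the pathway was described from a list of 60 complement genes grouped by role, of which 24 had a row in the table. Of these 24, 5 rose and 7 fell over the 5 libraries and over all 6, and 12 were not called. Among all genes, 4.41% rose and 3.15% fell over the 5 libraries, and 4.58% and 3.37% over all 6. These shares also stand beside the counts of every list below. Their median log2 fold change was 0.11. Among the 16 that are not among the 9 genes, 3 rose and 4 fell. Of the recognition proteins and initiating proteases, 5 of 14 had a row and 3 rose, C1R, C1S and C1RL. MASP2, a protease of the lectin pathway, stood at 1.48 ± 0.433 and 1.71 ± 0.153 CPM in L1high and L1low cells (SD, n = 3 each) without a call. The chains of C1q itself had no row.

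**Figure D4:**
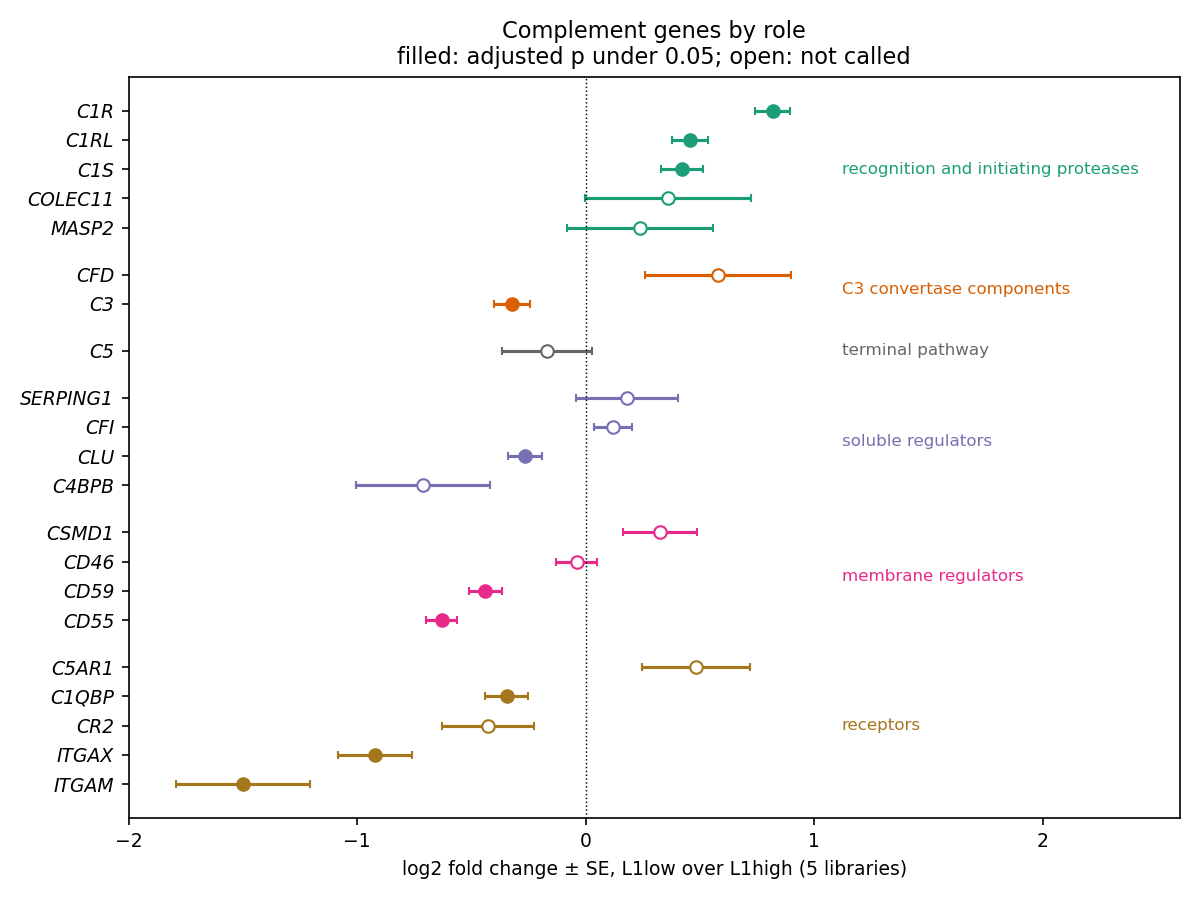
Log2 fold change ± standard error over the 5 libraries (x axis) of the complement genes reported here, grouped and colored by role, filled where the adjusted p was under 0.05. The 3 called proteases lie right of 0, whereas the called membrane regulators and the 3 called receptors lie left of it.

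Of the soluble regulators, 7 of 14 had a row, of which 2 rose and 1 fell. The gene that fell was CLU, which encodes clusterin, a chaperone that binds the forming pore complex. It went from 167 ± 7.26 to 136 ± 3.21 CPM (SD, n = 3 each, log2 fold change -0.26, adjusted p = 0.04997 in the edgeR test). This call was less firm than those of CD55 and C1R. Without L1high replicate 1, L1high replicate 2, L1low replicate 1 or L1low replicate 2 in turn, CLU was not called, with adjusted p of 0.0812, 0.339, 0.102 and 0.184 and log2 fold changes between -0.31 and -0.22.

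Among the receptors, 5 of 10 had a row and 3 fell. ITGAM and ITGAX encode the alpha chains of the complement receptors CR3 and CR4, which bind C3 fragments on leukocytes. ITGB2, the gene of their shared beta chain, had no row, so the level of the whole receptors cannot be assessed. ITGAM fell from 3.501 ± 0.508 to 1.19 ± 0.343 CPM (SD, n = 3 each, log2 fold change -1.501, adjusted p = 0.00796 in the edgeR test). Its counts in the L1low libraries were only 25, 25 and 14. ITGAX fell from 13.8 ± 2.21 to 6.94 ± 0.720 CPM (log2 fold change -0.92, adjusted p = 0.00414). Without L1high replicate 1 neither was called, with an adjusted p of 0.0848 for ITGAM and 0.0668 for ITGAX at log2 fold changes of -1.28 and -0.69. DESeq2 called ITGAX and gave ITGAM no adjusted p. C1QBP, a mitochondrial protein that can bind C1q, fell by 0.35 on the log2 scale (adjusted p = 0.0443 in the edgeR test). It was not called without L1high replicate 1 (0.0735), L1high replicate 2 (0.397), L1low replicate 1 (0.093) or L1low replicate 2 (0.196), nor over all 6 libraries without L1high replicate 1 (0.0852) or 2 (0.0851), at log2 fold changes from -0.43 to -0.26. The leukocyte marker list had 1 of 9 genes in the table, CD68, at 8.42 to 8.81 CPM in L1high and 9.37 to 11.3 CPM in L1low cells, and PTPRC had no row.

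CD55 and CD59 reach the surface on a GPI anchor, and CD46 does not. All 28 genes of GPI anchor synthesis examined had a row, and edgeR called none of them, with 3 at an unadjusted p under 0.05. DESeq2 also called none. Their median log2 fold change was -0.04 and their range -0.37 to 0.21, and the summed level was 1135 to 1186 CPM in L1high and 1106 to 1169 CPM in L1low cells. PIGA, which encodes a subunit of the enzyme for the first step of the anchor, stood at 13.6 ± 1.70 and 11.6 ± 2.55 CPM (SD, n = 3 each).

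Complement genes are transcribed under NF-kB, STAT, IRF and C/EBP factors in response to cytokines. Of 15 such factors and cytokine receptor genes, 2 rose, none fell, and the median log2 fold change was -0.03. IL6R, the receptor for interleukin-6, had the larger rise, from 11.7 ± 1.37 to 16.02 ± 0.763 CPM (SD, n = 3 each, log2 fold change 0.56, adjusted p = 0.0149 in the edgeR test). It was not called without L1high replicate 1 (adjusted p = 0.0797 in edgeR), L1high replicate 2 (0.121) or L1low replicate 2 (0.0767), nor over all 6 libraries without L1high replicate 1 (0.163) or 2 (0.0801), at log2 fold changes from 0.40 to 0.58.

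Acute phase genes, which respond to the same cytokines in liver and epithelium, had 5 of 16 listed members in the table. Of these, 1 rose and 2 fell over the 5 libraries, and 1 rose and 3 fell over all 6. CP, which encodes ceruloplasmin, rose from 52.1 ± 5.33 to 112 ± 5.07 CPM (SD, n = 3 each, log2 fold change 1.03, adjusted p = 9.68e-06 in the edgeR test). HP, which encodes haptoglobin, fell from 9.05 ± 0.358 to 5.98 ± 0.219 CPM (log2 fold change -0.62, adjusted p = 0.023), but was not called without L1high replicate 1 (0.0818), L1high replicate 2 (0.183) or L1low replicate 2 (0.109), nor over all 6 libraries without L1high replicate 1 (0.0655), at log2 fold changes from -0.64 to -0.59. TFRC, the transferrin receptor, is not a classical acute phase gene but was counted in this list. It was the other of the 2 that fell (log2 fold change -0.42, adjusted p = 0.00704 in the edgeR test). LCN2, which encodes lipocalin 2, fell over all 6 libraries alone (-0.55, adjusted p = 0.0289, against 0.0719 over the 5).

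Other cells that make complement were looked for by their markers. None of 6 hepatocyte markers, ALB among them, had a row, and 3 of 9 fibroblast markers did. The fibroblast sum ran from 86.7 to 98.5 CPM in L1high and from 140.2 to 160.2 CPM in L1low cells, most of it LUM, which rose with C1R and C1S (log2 fold change 0.74, adjusted p = 3.1e-04 in the edgeR test). PDGFRA, PDGFRB, DCN and COL1A2 had no row. COL3A1 and ACTA2, the other 2 with a row, were not called (log2 fold changes 0.52 and 0.20). Every library came from the same sorted line, and a part of fibroblast RNA in the rise of C1R and C1S was not tested.

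C1R had the smallest p of the 8 genes. Over the 6 libraries, among the 17023 genes whose log2 CPM averaged 1 or more, the levels most like those of C1R were those of NET1, a guanine nucleotide exchange factor, SLC2A5, a fructose transporter, and GLDC, the glycine decarboxylase of mitochondria. NET1 rose from 163 ± 4.22 to 268 ± 6.003 CPM (SD, n = 3 each, log2 fold change 0.71). SLC2A5 stood at 1.03 ± 0.00811 and 3.72 ± 0.277 CPM. GLDC stood at 4.23 ± 0.0346 and 6.28 ± 0.190 CPM and missed the threshold over the 5 libraries (adjusted p = 0.0537 in the edgeR test) but not over all 6 (0.026). Likeness was ranked by the correlation of log2 CPM, which the step between the groups sets in the main.

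The calls of C1R, CD55 and CD59 did not rest on 1 library, though that of CD59 held by the narrowest margin. Among fits with more than 1 library per group, the adjusted p of CD59 in the edgeR test was highest without L1low replicate 2. It was 0.0283 there, against 0.0023 over the 5 libraries. Without L1high replicate 2, which leaves 1 L1high library, CD59 lay nearer still to the threshold, at a log2 fold change of -0.40. Across all alternatives tried, C1R kept a log2 fold change between 0.79 and 0.84, CD55 between -0.71 and -0.55 and CD59 between -0.48 and -0.40, each with its call. C3 and C1S kept their direction in all of them but not their call, and the sign of CD46 varied.

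**Figure D5:**
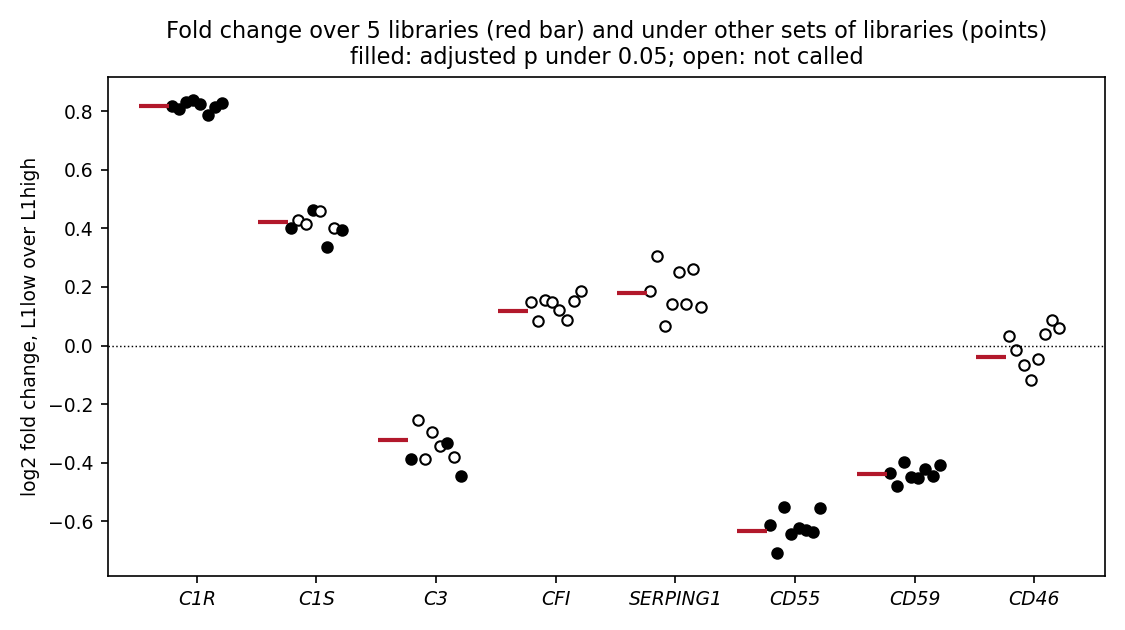
Log2 fold change of each complement gene in L1low over L1high cells (y axis) over the 5 libraries (red bar) and over the 8 other sets of libraries (points), filled where the adjusted p was under 0.05. C1R, CD55 and CD59 stay filled in every set, C1S and C3 are open in several, and CD46 falls on both sides of 0.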

How the data were processed

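L3.6pl cells sorted on L1CAM were profiled by RNA-seq in 3 L1high and 3 L1low libraries. The authors used BWA, which does not place reads across splice junctions, to align the stranded mRNA reads to GRCh38. Reads were then assigned with featureCounts to the genes of Ensembl release 94, and the deposited table holds these raw read counts. Tool versions and the settings of the counting for strand and multi-mapped reads are not given in the sources used here. Each gene of the table exceeded 1 CPM in at least 2 libraries (the lowest second-highest CPM was 1.02), so genes below that level cannot be assessed.

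Counts were analysed in R 4.3.3 with edgeR 4.0.16 (TMM, filterByExpr, which kept all 19469 genes over 5 libraries and 19467 over 6, quasi-likelihood test, Benjamini-Hochberg adjustment). The standard error is the log2 fold change over the square root of F. Log2 CPM used a prior count of 2. Symbols, coordinates and exon lengths came from GENCODE 44 (19344 identifiers matched), promoters from RefSeq. Alternatives were DESeq2 1.42.0, other scaling factors, filters, the replicate number as a block and left-out libraries. No library pair was a duplicate (chi-square per degree of freedom at least 3.66).

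The 9 genes and all lists were chosen with earlier results of these data known. Named were the 9 genes, called complement genes, the largest called rise and fall of the other lists, L1CAM and the genes most like C1R. MASP2, CR2, PIGA, TFRC, LCN2, LUM, COL3A1, ACTA2, CD68 and the neighboring genes were named after their values were seen. Some genes counted in the lists are not reported here by name.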

Additional observations from a re-analysis of the deposited data

How the results depend on the processing

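Over 136 values of the 8 log2 fold changes under the alternatives, 121 kept their direction and their side of the threshold, 9 lost the call and 6 changed sign. The 136 values are not independent, since some alternatives repeat others, as given below. The lost calls were those of C3 and C1S with libraries left out, and the cause was not tested. All sign changes were those of CD46, which was never called, with 0.0309 over all 6 libraries, 0.0378 without L1low replicate 3 (single libraries left out gave from -0.118 upward), 0.0874 and 0.0585 over all 6 libraries without L1high replicate 1 or 2, and 0.0366 and 0.031 with the replicate block over 5 and 6 libraries. With libraries left out, the number of the 8 genes called ran from 3 to 5 (1 to 2 higher, 2 to 3 lower), that of complement genes from 4 to 12 (1 to 5 higher, 2 to 7 lower) and that of all genes from 389, without L1high replicate 2, to 1649 (251 to 941 higher, 138 to 761 lower). Over all 6 libraries it ran from 674 (425 higher, 249 lower), without L1high replicate 1, to 1278. A lone L1high library is assumed to vary like the others.

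The replicate numbers are not said to pair the libraries. Deviations of libraries with the same number correlated by 0.0743, 0.0906 and 0.208, and 6 of 6 libraries correlated best with their own number. The replicate block called 1799 genes over 5 libraries, and 2363 over all 6 (1143 lower), with the call of the same 5 complement genes of the 8. CLU was not called with the block over 5 libraries (adjusted p = 0.0721 in edgeR). DESeq2, RLE, upper-quartile or library-size scaling and filters changed no call of the 8 genes. Over 5 libraries no gene failed the low-count filter, so leaving it out tests nothing. With the block over 5 libraries, L1low replicate 3 is alone in its block. That fit therefore nearly repeats the fold changes without that library (C1R 0.7877 and 0.7876). Adding reads of read-through genes was chosen after seeing the data and moved the fold changes of CFI and CD59 alone among the 8 genes. Depth limits SERPING1 most, with 42 to 61 counts per library.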
